A study of Arabidopsis thaliana with 12 samples.

Results

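SAB was compared with SIZ1 in Arabidopsis thaliana seedlings, which sets 1 knock-out line with SIZ1 signal near the floor against the line named for SIZ1. The members were the 3 SAB samples and the 3 SIZ1 samples, chosen by their titles and paired by replicate number, out of 12 samples in the series. The other 6 samples were 3 AB and 3 COL samples. SAB, SIZ1 and AB were T-DNA insertion knock-outs and COL was the Columbia wild type. The labels do not say which alleles AB and SAB carry, so the loss of a protease in them was read only from transcript levels. All groups were seedlings that received no treatment, kept at 23 °C under 100 µE of light on Murashige and Skoog medium, to which Gamborg B5 was added. An age of 10 days was given for AB replicates 1 and 2 only. Nothing in the labels said whether replicates came from separate plants or cultures, so the p-values below cover sample-to-sample spread that could be purely technical. Of 22746 non-control probe sets on the ATH1 array, 9893 (43.5%) had a mean log2 GCRMA value, a background-corrected and normalized array signal, of at least 4 over the 12 arrays and are described. Of these, 5104 named exactly 1 gene.

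SUMO is a small protein that is joined to other proteins in much the same way as ubiquitin. SIZ1 is a SUMO ligase, which helps to transfer SUMO to its targets, and in Arabidopsis its loss is known for stunted growth and raised salicylic acid defence. SUMO proteases mature the SUMO precursor and take SUMO off its targets. Only in taking SUMO off does a protease act in the opposite direction to the ligase. According to the labels, the samples were made to ask how ubiquitin-like proteases act on transcript levels.

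The control spots set a pair of arrays apart. The mean log2 value of the 18 hybridisation control probe sets was 9.20 on SAB replicate 3 and 7.17 on SIZ1 replicate 3, and lay between 8.05 and 8.61 on the other arrays. The amount of RNA also differed, with 894, 870 and 850 ng for SAB, against 802, 727 and 652 ng for SIZ1. RNA amount therefore did not overlap between the groups, and its part in any difference is addressed here only by a fit that held it as a covariate. Of the 13 root markers, 2 were named on the array and neither reached a mean of 4. No seed, flower or shoot marker on the fixed lists was named, so organ content was not tested.

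The targeted genes came first. SIZ1 probe set 247630_at had log2 values of 2.51, 2.49 and 2.55 in SAB, against 2.50, 2.51 and 2.19 in SIZ1. Both groups lay near the floor of the array, while AB averaged 5.26 and COL averaged 5.50. The second SIZ1 probe set, 247629_at, had 3.94, 3.84 and 3.94 in SAB, against 4.22, 4.12 and 4.63 in SIZ1. It was higher in both lines than in COL, which averaged 3.01, and whether it lies outside the disrupted part of the transcript was not tested.

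AT1G09730 is the locus known as the SUMO protease gene SPF1, a name taken from background knowledge. It had log2 values of 3.28, 3.29 and 3.13 in SAB, against 4.22, 4.29 and 4.35 in SIZ1. All 3 SAB values lay below all 3 SIZ1 values, and the SAB level was close to that of AB, which averaged 3.17, with COL at 4.76. The difference was -1.05 (95% interval -1.37 to -0.73), the unadjusted p was 8.99e-05 and the limma adjusted p was 0.411, so it was not called. It was called when only the brighter probe sets were tested (limma adjusted p = 0.036) and without AB replicate 2 (limma adjusted p = 0.0367). Its mean of 3.86 puts it below the level used for description. Over all probe sets, AT1G09730 was called lower than COL in AB, by a difference of -1.59 (limma adjusted p = 0.0106). It was also called lower than COL in SAB, by -1.53 (limma adjusted p = 0.00299). SIZ1 minus COL was -0.48 and was not called (limma adjusted p = 0.104).

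The related locus AT4G33620 and the protease gene ULP1B lay near the floor on all 6 arrays, so their values check nothing. AT4G33620 averaged 2.68 in SAB and 2.63 in SIZ1, and ULP1B averaged 2.55 in SAB and 2.52 in SIZ1. SAE1A, a subunit of the enzyme that activates SUMO, was well above the floor, with 6.44, 6.28 and 6.13 in SAB, against 6.57, 6.35 and 6.38 in SIZ1. The groups overlapped, and the difference was -0.15 (95% interval -0.40 to 0.09).

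QQS, an orphan gene known for its effect on starch, was named after its values were seen. It had 4.95, 4.56 and 5.16 in SAB, against 3.54, 3.53 and 2.82 in SIZ1. All 3 SAB values lay above all 3 SIZ1 values. The difference of 1.59 was not called over all probe sets. It was called, with a limma adjusted p of 0.036, only among the brighter probe sets. Its mean of 3.81 over the 12 arrays also lies below the level used for description.

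**Figure D1:**
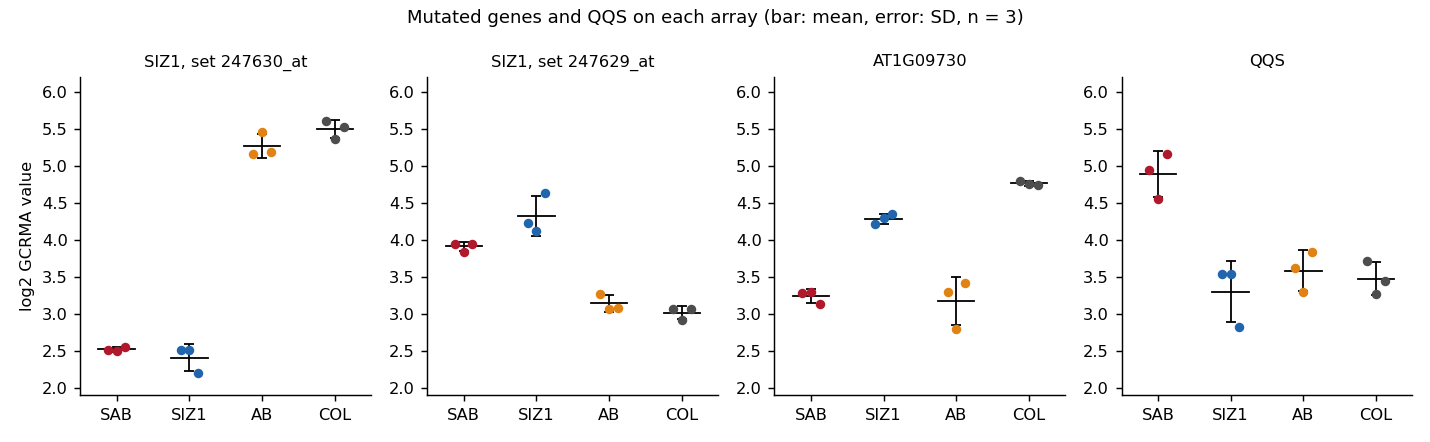
Log2 GCRMA values of both SIZ1 probe sets, AT1G09730 and QQS on each array, with points for arrays, a bar for the mean and an error bar for the SD (n = 3). AT1G09730 is low in SAB and AB, and QQS is highest in SAB.

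No probe set was called between SAB and SIZ1. In the fit across all 12 arrays with the replicate number as a block, limma's test called 0 of 22746 probe sets (0%) at an adjusted p under 0.05. At an unadjusted p under 0.05 there were 1254 probe sets (5.51%). The smallest unadjusted p was 8.65e-05, and the smallest adjusted p was 0.411, shared by 12 probe sets. Among the 9893 described probe sets, 784 (7.92%) had an unadjusted p under 0.05, with 262 higher and 522 lower in SAB. How far the median difference depended on the normalization is given below.

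The same lines each differed from wild type in many probe sets. SAB against COL gave 1173 called probe sets (5.16%) and SIZ1 against COL gave 1167 (5.13%), both by limma's test. These comparisons share arrays with SAB against SIZ1 and are given side by side only. AB against COL, which shares no array with it, gave 74 called probe sets (0.325%), 28 higher and 46 lower. Without the replicate block the count was 14.

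The differences between SAB and SIZ1 were also small in size. The median size over described probe sets was 0.0796 on the log2 scale for SAB minus SIZ1, 0.155 for SIZ1 minus COL and 0.103 for AB minus COL. A size of at least 1 was reached by 2 described probe sets in SAB minus SIZ1, by 145 in SIZ1 minus COL and by 27 in AB minus COL. Both of the 2, psbN and AT1G20390, were lower in SAB, and AT1G20390 reached the mean of 4 only through its SIZ1 values. Below that mean, QQS was higher by 1.59 and AT1G09730 differed by -1.05, so the filter bears on this count. The median SD between replicates was 0.131 in SAB and 0.136 in SIZ1.

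A missed threshold does not show that the lines were alike, so the intervals are given. The 95% interval of SAB minus SIZ1 lay inside -1 to 1 for 9814 described probe sets (99.2%) and inside -0.5 to 0.5 for 8440 (85.3%). The interval reached a median of 0.232 to either side of the estimate. Differences smaller than this were below what the fit could resolve for a typical probe set, even without adjustment. The intervals are not adjusted for the 22746 probe sets tested, so larger differences could also be missed. AT1G09730, at -1.05, was not called.

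**Figure D2:**
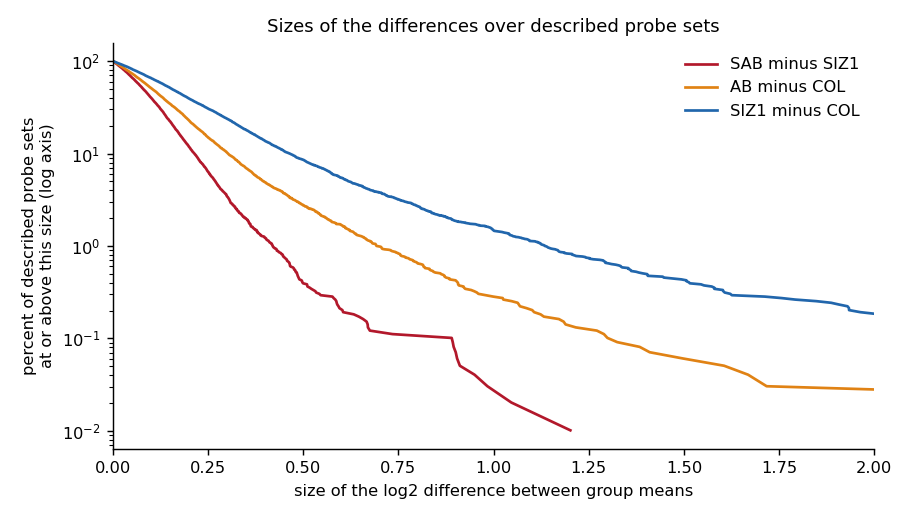
Percent of described probe sets (log axis) at or above each size of log2 difference. The SAB minus SIZ1 curve lies below the AB minus COL and SIZ1 minus COL curves, and ends at 1.202. The horizontal axis stops at 2.

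Separation of the groups without a test gave a further description. In 274 described probe sets (2.77%), all 3 SAB values lay above all 3 SIZ1 values, with every pair higher. In 570 (5.76%), all lay below, with every pair lower. Over all 22746 probe sets the lean was the other way, with 1538 higher (6.76%) and 840 lower (3.69%). The median of SAB minus SIZ1 was -0.03 over described probe sets. It was -0.002 after a further quantile normalization and 0.0049 with arrays centred on their medians. The mean over described probe sets was lowest on SAB replicate 3 (6.11) and highest on SIZ1 replicate 3 (6.17). The counts of higher and lower probe sets were not repeated under those settings. The lean of described probe sets to lower values is therefore not read as a difference between the lines.

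Since no gene was called, the 8 genes a side with the lowest unadjusted p and no overlap between the groups are given, none of them called. On the higher side were 3 plastid genes. rpl32, which encodes a protein of the plastid ribosome, had 10.37, 10.40 and 10.30 in SAB, against 9.99, 9.95 and 9.70 in SIZ1. The difference was 0.48 (SE 0.08, 95% interval 0.30 to 0.65, limma adjusted p = 0.493). SAB lay near AB and COL, which averaged 10.24 and 10.18, and SIZ1 was the low group.

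ndhC, a subunit of the plastid NADH dehydrogenase-like complex, averaged 10.29 ± 0.04 in SAB and 9.95 ± 0.09 in SIZ1 (SD, n = 3 each), a difference of 0.34. psbJ, a small photosystem II subunit, was higher by 0.29. Both had SIZ1 below COL, with SIZ1 minus COL at -0.28 for ndhC and -0.41 for psbJ.

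ZW9 had the largest difference of the 8. It had 7.85, 8.14 and 7.81 in SAB, against 7.36, 7.22 and 6.49 in SIZ1, a difference of 0.91 (SE 0.16, 95% interval 0.54 to 1.28, limma adjusted p = 0.65). SIZ1 replicate 3 was the lowest array. Both lines lay below COL, by 0.64 in SAB and by 1.55 in SIZ1.

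Smaller differences made up the rest of that side. NAI1, a transcription factor needed for ER bodies, was higher by 0.27, and JAL33, a jacalin-type lectin, by 0.20. AT5G57000 was higher by 0.35 and AT2G47690 by 0.25. The unnamed probe sets 258735_at and 254915_s_at were higher by 0.24 and 0.28.

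On the lower side, AT1G20390 stood out in size. It had 3.85, 3.93 and 4.002 in SAB, against 4.56, 5.25 and 5.11 in SIZ1, a difference of -1.05 (SE 0.15, 95% interval -1.41 to -0.68, limma adjusted p = 0.411). SIZ1 was the high group, since SAB averaged 0.05 below COL and SIZ1 averaged 0.99 above it. The mean of AT1G20390 over the 12 arrays, 4.15, reached 4 only through SIZ1, which averaged 4.97. SAB, AB and COL averaged 3.93, 3.73 and 3.98. AT3G55640 had 3.69, 3.79 and 3.70 in SAB, against 4.17, 4.12 and 4.21 in SIZ1, a difference of -0.44. Here SAB was the low group, with AB at 4.45 and COL at 4.19.

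AT1G29220 had 4.17, 4.10 and 3.97 in SAB, against 4.45, 4.45 and 4.48 in SIZ1, a difference of -0.38. SIRB, which inserts iron in the last step of siroheme synthesis, was lower by 0.16, with 5.77, 5.77 and 5.84 in SAB, against 5.96, 5.93 and 5.97 in SIZ1. The groups did not overlap in either gene, as the choice of these genes required. AT1G70790, AT1G68140, AT1G70480 and AT4G13550 were lower by between 0.36 and 0.46. The unnamed probe sets 261851_at and 250124_at differed by -0.50 and -0.36.

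**Figure D3:**
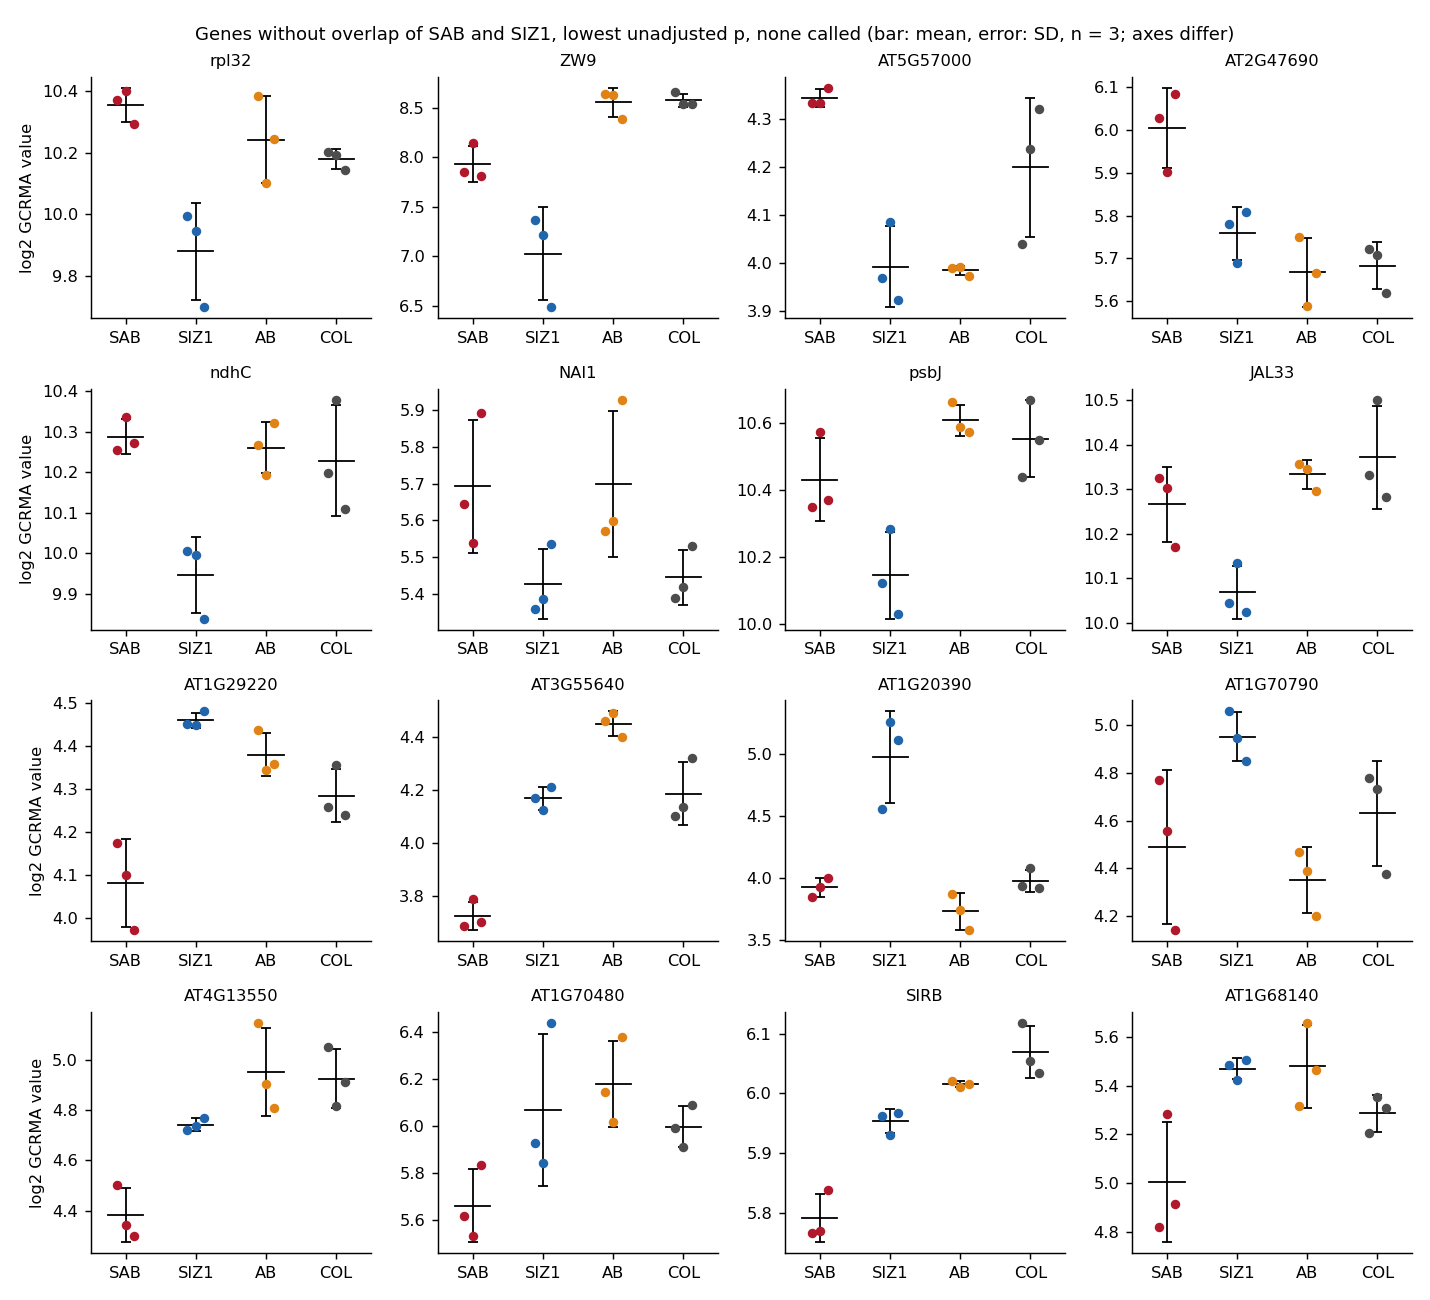
Log2 GCRMA values of the 8 genes higher and the 8 genes lower in SAB. Points are arrays, the bar is the mean and the error bar is the SD (n = 3). These genes were chosen for no overlap of SAB and SIZ1, and then by the lowest unadjusted p in the limma fit. The scale differs between panels.

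Plastid genes lay on both sides of 0, and those that differed most were lower in SAB. Plastids keep a small genome of their own that encodes subunits of the photosystems, of the other photosynthetic complexes and of the plastid ribosome and RNA polymerase. Of the 60 described plastid probe sets, 24 were higher and 36 lower in SAB, with a median of -0.10 against -0.03 over all described probe sets. None was called, and 19 (31.7%; 10 higher, 9 lower) had an unadjusted p under 0.05, against 7.92% of all described probe sets. In whole seedlings, fewer cells of a type and less RNA per cell cannot be told apart. The mean over the 60 was 7.99, 8.16 and 7.80 in SAB, against 8.27, 8.08 and 7.95 in SIZ1. The groups overlapped, and SAB replicate 2 lay above SIZ1 replicate 2 while the other pairs ran the opposite way. The median was 0.02 without SAB replicate 3 and -0.10 without SIZ1 replicate 3, the arrays whose control spots stood apart.

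A difference of at least 0.5 in size was found in 38 described probe sets, 19 each way. Of the 19 lower in SAB, 7 were plastid genes, and of the 19 higher, 0 were. These genes were named for their size after the values were seen. psbN, known in the assembly of photosystem II, had 3.87, 4.01 and 3.16 in SAB, against 5.12, 5.22 and 4.31 in SIZ1, a difference of -1.202 (SE 0.26, 95% interval -1.81 to -0.59, limma adjusted p = 0.733). psbC, an inner antenna protein of photosystem II, had 8.57, 8.87 and 8.02 in SAB, against 9.88, 9.39 and 8.91 in SIZ1, a difference of -0.90. The groups did not overlap in either gene, and both lines lay below COL, which averaged 5.49 for psbN and 10.44 for psbC.

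rpl20, a ribosomal protein gene, had 3.50, 3.29 and 3.37 in SAB, against 4.95, 4.32 and 3.83 in SIZ1, a difference of -0.98 without overlap. atpH, a subunit of the ATP synthase ring, differed by -0.67, also without overlap. petL of the cytochrome b6f complex and accD of fatty acid synthesis differed by -0.89 and -0.63, and their groups overlapped.

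By role, the photosystem II genes (psb) had a median of -0.07 over 15 probe sets, with a range of -1.202 to 0.29. The ndh genes had a median of 0.19 over 7. In 3 of these 7, ndhC, ndhA and ndhI, all SAB values lay above all SIZ1 values. The same was found in 8 of the 60 plastid probe sets and in 2.77% of all described ones. All SAB values lay below all SIZ1 values in 6 of the 60 and in 5.76% of all described ones. The atp genes had a median of -0.12 over 6, the small ribosomal subunit genes (rps) 0.16 over 7 and the large subunit genes (rpl) -0.11 over 7. Among the 39 of 46 photosynthesis probe sets that reached the mean of 4, the median was -0.55 for SAB minus COL, -0.44 for SIZ1 minus COL and 0.03 for AB minus COL.

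**Figure D4:**
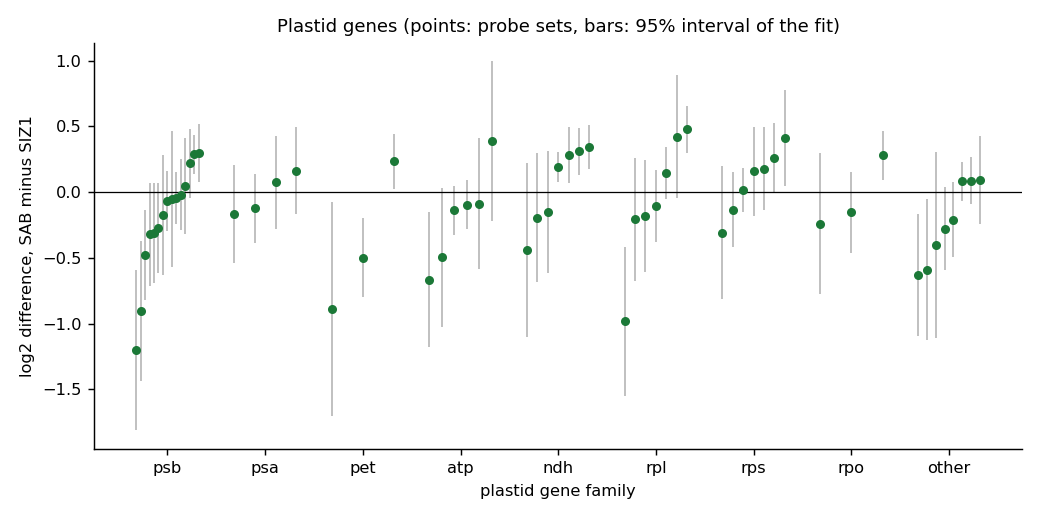
Log2 difference SAB minus SIZ1 for each described plastid probe set by gene family, with the 95% interval of the fit. Points lie from -1.202 (psbN) to 0.48 (rpl32), on both sides of 0 in every family.

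No member of any other gene list was called. Over all described probe sets, 4068 (41.1%) were higher and 5825 lower in SAB. The median of -0.03 given above depended on the normalization. Nuclear light harvesting and photosystem genes had 7 described probe sets with a median of -0.01, and PSBW had the lowest p of them, higher by 0.21. UDP-glycosyltransferases, enzymes that attach sugars to small molecules, had 23 of 48 described, 8 higher and 15 lower, with a median of -0.12. Autophagy genes, which serve the recycling of cell contents, had 11 of 11 described, 9 higher and 2 lower, with a median of 0.05 and a range of -0.04 to 0.13.

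Of the cold regulon, 4 of 5 probe sets were described, 3 of them higher, with a median of 0.19. COR15B was higher by 0.31 (95% interval 0.03 to 0.59). The ubiquitin list had 17 of 24 described with a median of 0.02, and UBP23, a ubiquitin protease, was lower by 0.17. Vesicle traffic genes had 16 of 22 described with a median of -0.01. Lists with few described members had the medians farthest from that of all described probe sets. The flavonoid list had a median of 0.26 over 3, nitrate uptake and assimilation 0.21 over 2 and the lectins 0.17 over 3. Of the described flavonoid members 2 of 3 were higher. All 3 described members of the lectin list were higher, out of 5 probe sets named. These lists hold only genes found by symbol or synonym, so they do not speak for whole families.

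Genes at which both lines stood far from wild type were then compared between SAB and SIZ1. The mean of SAB and SIZ1 against COL, a contrast added after the data were seen, gave 1867 called probe sets (8.21%) by limma's test, of which 1642 were described. In the balanced fit its estimate does not depend on SAB minus SIZ1. Among the 1642, the SAB and SIZ1 means lay on opposite sides of COL in 0, a count that the choice of probe sets largely fixes. The median size of SAB minus SIZ1 in them was 0.0802, while the median size of the mean of both lines minus COL was 0.428. The 95% interval of SAB minus SIZ1 lay inside -1 to 1 for 1626 of them (99.0%), against 99.2% of all described probe sets. An unadjusted p under 0.05 was found for 214 (13.0%), against 7.92% of all described probe sets. Both contrasts use the same estimate of spread for each probe set, so choosing called probe sets favours small spreads. No conclusion is therefore drawn from these shares of intervals and p-values.

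The genes farthest from COL were taken after their values were seen. AT3G16530 had 9.09, 8.59 and 8.48 in SAB, against 9.03, 8.57 and 8.61 in SIZ1, with COL at 5.15. Its difference of -0.02 had a 95% interval of -0.93 to 0.89. AT1G72800 had 5.67, 5.99 and 5.99 in SAB, against 5.74, 5.53 and 6.50 in SIZ1, with COL at 2.997. The groups overlapped in both genes. The others that were higher than COL, AT1G19960, AT2G18210, AT2G19970, AT1G27030, AT3G04210 and AT2G22880, differed between SAB and SIZ1 by 0.01 to 0.43. All SAB values lay above all SIZ1 values in AT2G18210 (0.39, unadjusted p in the limma fit 0.00639) and AT2G19970 (0.43), and the groups overlapped in the other 4.

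Among genes below COL, THI2.2, a thionin, had 5.51, 4.90 and 4.96 in SAB, against 5.05, 4.92 and 5.01 in SIZ1, with COL at 6.70. The groups overlapped and the difference was 0.13. AT1G62510, AT5G22580, AT1G66100, AT1G70880, AT1G14120 and AT5G35970 differed by 0.01 to 0.45. In AT1G70880 (0.45, unadjusted p in the limma fit 0.00919) all SAB values lay above all SIZ1 values. The plastid gene psbC, the last of the 8 below COL, differed by -0.90, also without overlap. The sign of some of these differences changed with the processing, and not only of the smallest. AT5G22580 differed by 0.18, and by -0.36 with RNA amount as a covariate.

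The step from SIZ1 to SAB was then set beside the step from COL to AB, where the SIZ1 signal was present in both groups. Whether SAB joins the AB and SIZ1 mutations is not stated in the labels. AB minus COL called 60 described probe sets, 24 higher and 36 lower. SAB minus SIZ1 had the same sign in 33 of these 60 (55%), against 52.2% of all described probe sets. The median size of AB minus COL in the 60 was 0.532. Taken in the direction of AB minus COL, the median of SAB minus SIZ1 was 0.01. An unadjusted p of SAB minus SIZ1 under 0.05 was found for 21 of the 60 (35%), against 7.92% of all described probe sets. Of the 21, 10 had the sign of AB minus COL and 11 the opposite sign. Both steps use the same estimate of spread for each probe set. Choosing probe sets called in AB minus COL therefore favours small spreads, so no conclusion is drawn from these shares. Over the 9893 described probe sets, Pearson's r between the differences was 0.0717 and Spearman's rho was 0.0463, a description across probe sets that are not independent.

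The values of single genes are set beside this. THI2.2 was higher in AB, with a mean of 7.89 in AB and 6.70 in COL, a difference of 1.18 (limma adjusted p = 0.0265), while SAB minus SIZ1 was 0.13 (95% interval -0.20 to 0.46). AT3G44970, chosen after its values were seen, averaged 5.30 in AB and 4.03 in COL, and 6.05 in SAB and 6.05 in SIZ1. The difference between the steps was itself tested and was called in neither gene. Its limma adjusted p was 0.267 for THI2.2 and 0.119 for AT3G44970. Other genes, also chosen after their values were seen, differed in the same direction in both steps. AT2G16005 had 7.48, 7.16 and 6.85 in SAB, against 7.15, 6.59 and 6.34 in SIZ1, a difference of 0.47 (95% interval 0.16 to 0.79, limma adjusted p = 0.786), with AB minus COL at 1.12. The groups overlapped, and SAB was higher in all 3 pairs. AT5G37990 was higher by 0.36 in SAB minus SIZ1 and by 0.82 in AB minus COL. AT5G60460 was higher by 0.22 and 0.41, and its SAB values all lay above its SIZ1 values.

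The test of the departure, SAB minus SIZ1 less AB minus COL, called 12 probe sets (0.0528%) by limma's test, 5 positive and 7 negative, of which 10 were described. AT1G52100 had 7.53, 7.42 and 6.84 in SAB, against 7.53, 7.54 and 7.13 in SIZ1, and the groups overlapped. In AB it had 8.04, 8.13 and 7.68, against 7.10, 6.88 and 6.62 in COL, without overlap. The departure was -1.22 (SE 0.10, limma adjusted p = 0.023). AT5G24170 had a departure of -0.74 (limma adjusted p = 0.0473), with SAB minus SIZ1 at -0.23 and AB minus COL at 0.50.

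These calls rested on the fit: without the replicate block limma called 0 (1218 at an unadjusted p under 0.05), and leaving out single arrays left between 0 and 6. With RNA amount as a covariate 1 was called, and it was none of the 12.

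**Figure D5:**
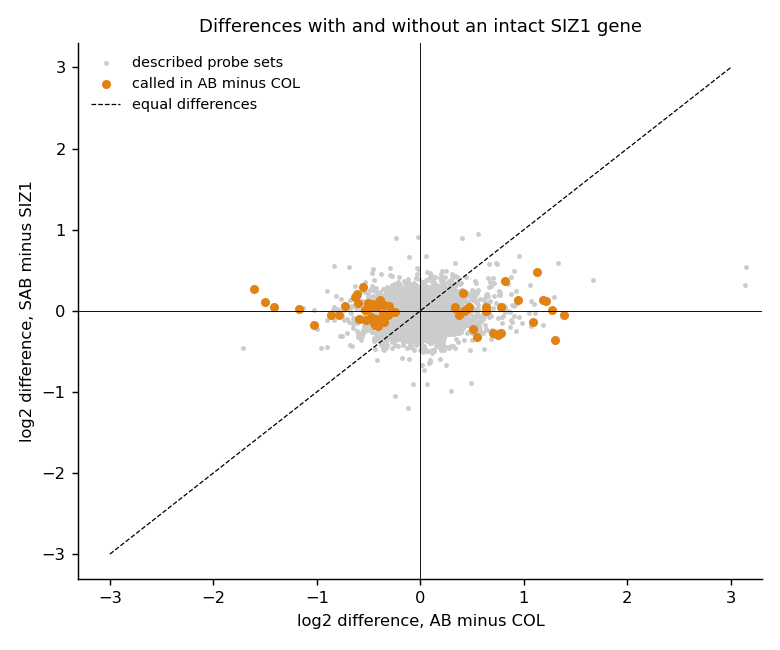
Log2 difference SAB minus SIZ1 against AB minus COL for described probe sets (grey) and the 60 called in AB minus COL (orange), with a dashed line where both are equal. The called probe sets reach farther along the horizontal axis than along the vertical one, and lie on both sides of 0 on the vertical axis.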

How the data were processed

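RNA of 12 seedling samples was hybridised to ATH1 arrays. The deposited values are log2 GCRMA values, normalized by the authors per the submitters' processing notes; the GCRMA version and settings are not given in the sources used here. Their range was 2.02 to 13.21, and the number of arrays limits the precision. GCRMA normalizes arrays together, so a change shared by most genes would not show. Of 22746 non-control probe sets, 13513 named 1 gene, 503 several and 8730 none, through the platform annotation updated with RefSeq symbols (TAIR10.1).

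limma 3.58.1 in R 4.3.3 was fitted to all 12 arrays with genotype and replicate number as a block (6 residual degrees of freedom), with Benjamini-Hochberg adjustment over 22746 probe sets and calls under 0.05. The block follows the pairing by replicate number in the sample titles. Deviations of same-numbered arrays correlated at 0.102 to 0.451 (18 pairs), and those of different numbers at -0.476 to 0.0923 (36 pairs). The script was tested on simulated data.

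Members and gene lists were chosen with earlier results of these data known. Named genes were the 12 largest called changes a side that name 1 gene and do not overlap, filled to 8 by the lowest unadjusted p where fewer were called, besides SIZ1, SUMO proteases and list members. Others are said to be chosen after their values were seen. The contrast of both ligase lines with COL was added later. Alternatives covered the block, normalization, filter, variance model, array weights, RNA amount and each array left out.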

Additional observations from a re-analysis of the deposited data

Results flagged for a closer look

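The difference SAB minus SIZ1 departed from AB minus COL, by a test of that difference in limma, in 12 probe sets. The departure was -1.66 for 256598_at, -1.44 for 246932_at, -1.22 for AT1G52100, -1.10 for AT1G33790, -1.05 for 266037_at, -0.86 for 255037_at and -0.74 for AT5G24170. It was 0.54 for 253041_at, 0.78 for 247109_at, 0.85 for 253088_at, 1.53 for 260957_at and 1.88 for 247162_at. AT1G33790 averaged 3.05 in SAB and 3.13 in SIZ1, and 4.07 in AB and 3.06 in COL, so its mean lay below 4. The mean of 260957_at, 3.76, also lay below 4. It averaged 3.46 in SAB, 3.44 in SIZ1 and 3.31 in AB, and only COL, at 4.82, lay above 4.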

How the results depend on the processing

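The count of probe sets called between SAB and SIZ1 was 0, and stayed at 0 under 18 of the 20 alternatives. With brighter probe sets alone it was 2 (QQS and AT1G09730), and leaving out single arrays gave 0 to 1. Some alternatives with 0 calls came near the threshold. With array weights, 3293 probe sets had an unadjusted p under 0.05 in limma's test, against 1254 in the main fit. The smallest limma adjusted p was then 0.0652, against 0.411. It was 0.0716 without SIZ1 replicate 1 and 0.0896 without SIZ1 replicate 3.
Without the replicate block, AB minus COL had 14 calls, departure 0, SIZ1 minus COL 732 and SAB minus COL 731. Median centring gave 112 calls for AB minus COL. Brighter probe sets alone gave 188 for AB minus COL, 19 for departure and 1809 for SAB minus COL. Array weights gave 133 for AB minus COL, 34 for departure and 1895 for SIZ1 minus COL. RNA amount as a covariate gave 1 for departure and 233 for SAB minus COL. With a mean of at least 5 in place of 4, the described departures called were 6. Without the block, limma gave 1218 departures at an unadjusted p under 0.05.
Leaving out single arrays gave 12 to 77 calls for AB minus COL, 0 to 6 for departure, 378 to 1296 for SIZ1 minus COL, 485 to 1445 for SAB minus COL and 749 to 2214 for the mean of both lines minus COL. The arrays that moved a count by over 1.5 times were, for departure, each of the 12; for AB minus COL, each but SIZ1 replicates 1 and 3; for SIZ1 minus COL, SIZ1 and COL replicates 1 and 2; for SAB minus COL, all SAB arrays and COL replicates 1 and 2; for the mean of both lines, SIZ1 replicate 2 and COL replicates 1 and 2; and for SAB minus SIZ1, AB replicate 2.
None of the genes whose sign changed was called. AT3G16530 was 0.0099 with centring and 0.0423 with array weights, and AT1G72800 was 0.27 with weights and 0.0744 with RNA amount. RNA amount also gave -0.0144 for AT4G33620, -0.12 for AT4G12490, -0.16 for AT3G04210, -0.0639 for AT2G22880, -0.36 for AT5G22580 and -0.16 for AT1G14120. Leaving out single arrays gave ranges of -0.18 to 0.30 for AT1G14120, -0.011 to 0.39 for AT1G19960, -0.0082 to 0.16 for AT1G27030, -0.25 to 0.19 for AT1G72800, -0.29 to 0.38 for AT2G22880, -0.0583 to 0.15 for AT3G04210, -0.30 to 0.34 for AT3G16530, -0.0837 to 0.39 for AT5G22580 and -0.0737 to 0.0816 for AT5G35970. The plastid median was 0.0772 with array weights and -0.25 with RNA amount. The cause of these changes was not tested. Low signal limits AT4G33620 and ULP1B.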
